A study of Homo sapiens with 8 samples.

Results

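The effect of a drug and the effect of a knockdown aimed at the same protein were compared gene by gene in A549 cells. The quantity examined is the difference of effects, (TP-0903 minus control) minus (AXL shRNA minus control shRNA), on a log2 scale. A positive value means that a gene stood higher after the drug than after the knockdown, each against its own control. Of 17676 genes tested over all 8 libraries, 3645 (20.6%) passed an adjusted p of 0.05 in edgeR's quasi-likelihood test. Of these, 1736 (9.82% of those tested) had a higher and 1909 (10.8%) a lower effect with the drug than with the knockdown.

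A549 is an established human lung adenocarcinoma line. The 4 groups had 2 libraries each: cells with a control hairpin (control shRNA), cells with a hairpin against AXL (AXL shRNA), cells named control, and cells given TP-0903 at 40 nM. The labels call the replicates biological and number the hairpin libraries P15 and P3 and the drug libraries P17 and P4, without saying what P stands for. The sources used here do not say what the control cells received, how long treatment lasted, or how hairpins were delivered. The p-values measure only the spread between these samples.

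AXL is a receptor tyrosine kinase of the TAM family, with TYRO3 and MERTK, and binds the ligand GAS6. In lung cancer it is known for its part in resistance to other kinase inhibitors. TP-0903 binds the kinase domain of AXL and is known to act on other kinases too, while a hairpin lowers the messenger RNA and with it the whole protein. A gene can therefore answer to both treatments, to 1 of them, or in opposite directions.

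The difference of effects can also be written as the gap between both controls minus the gap between both treated groups. The control gap, control shRNA minus control, passed the test for 1618 genes (9.15%), of which 541 (3.06%) were higher and 1077 (6.09%) lower with the hairpin. The treated gap, AXL shRNA minus TP-0903, passed for 5307 genes (30%), of which 2644 (15%) were higher and 2663 (15.1%) lower in AXL shRNA. The drug itself changed 1989 genes (11.3%), not many more than the 1618 that differed between the controls. Because the control gap and the treated gap share libraries with both effects, their values are given side by side. Hairpin, delivery, culture and P number differ between the controls together, and their parts cannot be told apart.

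Library totals ran from 30067011 to 44217023 expected counts. The log2 CPM (counts scaled by library total) of both libraries of a group correlated across genes with r of 0.979 to 0.983, where genes are not independent replicates. Mitochondrially encoded genes took 6.79% and 7.78% of counts in AXL shRNA and 3.58% to 5.82% in the other libraries. All 10 markers listed for epithelial lung adenocarcinoma identity were present in every library. They summed to 39100 and 45100 CPM in AXL shRNA and 18500 to 28600 CPM elsewhere. Keratins and the enzymes ALDH1A1, AKR1B10, AKR1C1 and NQO1, which are no markers of epithelium as such, made up most of the sum. CDH1 stood at 40 to 220 CPM and EPCAM at 3.08 to 48.3 CPM. The 11 blood markers summed to 12.1 to 28.7 CPM, with CD3D and MS4A1 at 0 in all libraries, and the 6 endothelial markers to 0.419 to 10.1 CPM, with KDR at 0. The 6 fibroblast markers summed to 56.4 and 108 CPM in AXL shRNA and 11.8 to 22.2 CPM elsewhere, with COL1A2 at 0 in most libraries and COL3A1 and COL1A1 making up most of the sum.

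AXL itself (chr19:41219203-41261766, plus strand, GRCh38) checks the labels. It stood at 85.1 and 139.5 CPM in control shRNA (P15 and P3) and at 55.4 and 63 CPM in AXL shRNA, and at 216 and 105 CPM in control (P17 and P4) and 279.6 and 153 CPM in TP-0903. Within each P number AXL was lower with its hairpin and higher with the drug, but the levels of both control groups overlap. The difference of effects was 1.36 (SE 0.58), with an edgeR adjusted p of 0.142, and 0.00111 with the P number as a block. The pairing by P number is described with the processing. In the fit without the block neither effect on AXL passed (knockdown -0.92, adjusted p 0.12; drug 0.43, adjusted p 0.543).

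None of the 5 TAM receptors and ligands passed the test of the difference, and 3 passed with the block. MERTK had a difference of -0.92 (adjusted p 0.594, 0.0357 with the block), and the ligand PROS1 1.04 (adjusted p 0.328, 0.00207 with the block). Among kinases and factors downstream of many receptors, STAT3 stood at 307 and 241 CPM in control shRNA, 728 and 647 CPM in AXL shRNA, 319 and 284 CPM in control and 619.5 and 556 CPM in TP-0903. Both treated groups lay above both controls, and STAT3 passed in each arm with no call of the difference (-0.36, SE 0.22, adjusted p 0.279); the drug call was lost without control P17, control P4 or TP-0903 P17 (adjusted p 0.0514, 0.0613 and 0.0777). SMAD4, the shared partner of the TGF-beta and BMP pathways, stood at 59 and 58.4 CPM in control shRNA, 31.6 and 28.6 CPM in AXL shRNA, 65.1 and 60 CPM in control and 51.6 and 52.4 CPM in TP-0903. Its difference was 0.70 (SE 0.14, edgeR adjusted p 0.0158), with the AXL shRNA libraries apart from the other 6, and it was lost without any of 4 libraries (adjusted p 0.0529 to 0.0558 without AXL shRNA P3, control P4, TP-0903 P17 or TP-0903 P4).

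Genes were sorted by whether each effect passed the test. The knockdown changed 6627 genes (37.5%), of which 3275 (18.5%) rose and 3352 (19%) fell, and the drug changed 866 (4.9%) upward and 1123 (6.35%) downward. Both treatments called 763 genes in the same direction: 419 rose with both and 344 fell with both. Another 266 genes went in opposite directions, 195 rising with the knockdown and falling with the drug and 71 the reverse. The knockdown alone called 5598 genes (2661 up, 2937 down) and the drug alone 960 (376 up, 584 down). A further 10089 genes passed in neither arm, of which 230 passed in the difference.

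**Figure D1:**
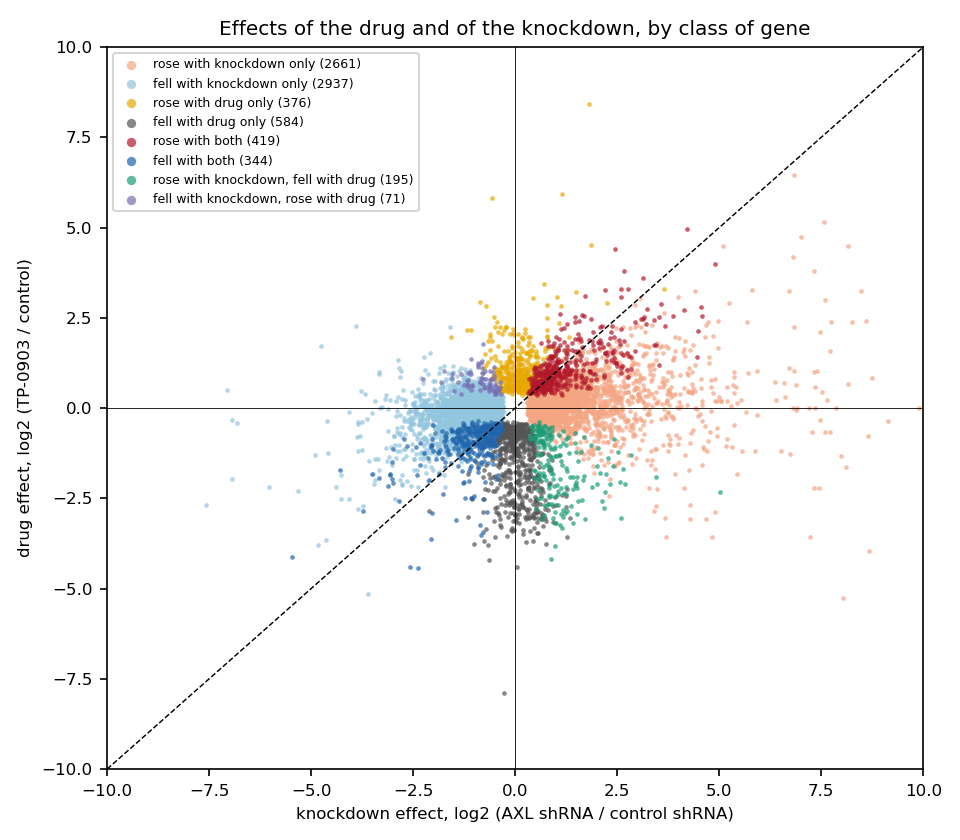
Drug effect (y axis, log2 of TP-0903 over control) against knockdown effect (x axis, log2 of AXL shRNA over control shRNA) for the genes that passed the test in at least 1 arm, coloured by class, with the dashed line where both effects are equal. The 584 genes that fell with the drug alone form a column near 0 on the x axis, and the 195 that rose with the knockdown and fell with the drug lie in the lower right.

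A call in 1 arm alone does not show that the arms differ. Of the 5598 genes called with the knockdown alone, 2465 also passed the test of the difference, as did 584 of the 960 called with the drug alone, all 266 of the opposite classes and 100 of the 763 that changed in the same direction. The rest of the knockdown only class thus had drug effects that could not be set apart from the knockdown effects at this depth of replication. For all 3645 genes called in the difference, both within-P drug effects lay on 1 side of both within-P knockdown effects. Over all tested genes 71.5% did so. The within-P effects come from the same libraries as the call, so this order follows largely from the call and is no independent support.

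The sizes of the classes depend on the spread in these pairs of libraries. The class that changed in the same direction held 117 to 540 genes when a library was left out, lowest without TP-0903 P17 and with 191, 249, 425, 467 and 497 genes without control P17, control P4, TP-0903 P4, AXL shRNA P3 and control shRNA P3. The opposite classes held 86 genes without TP-0903 P17, 105 without control P17, 129 without TP-0903 P4, 146 without control shRNA P15, 150 without AXL shRNA P3, 168 without control shRNA P3 and 173 without control P4. The drug only class fell to 286, 288, 476 and 535 genes without TP-0903 P17, control P17, control P4 and TP-0903 P4. With the P number as a block the difference passed for 6530 genes (36.9%), with 2073 genes changing in the same direction and 830 in opposite directions. On log2 TPM values, which are scaled per length within each library, the median difference of all genes was 0.141, against 0.01 in the count fit, and 63.5% of the calls were higher, against 47.6%. The higher calls numbered 2207 on that scale and the lower calls 1266.

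For each gene, the group that stands apart was taken as the group whose removal left the smallest range among the 4 fitted group levels, where that range was at most 0.5 of the whole. Over all tested genes this was AXL shRNA for 26.8%, control shRNA for 11.4%, TP-0903 for 9.73%, control for 8.9% and no single group for 43.1%. The classes limit which group can stand apart, so these shares describe a class and test nothing. In the knockdown only class AXL shRNA stood apart for 54.2% of genes and control shRNA for 16.1%. Among the 376 genes that rose with the drug alone, TP-0903 stood apart for 50.8% and control, as the low group, for 23.7%. Among the 584 that fell with the drug alone the order was reversed, with control high for 365 genes (62.5%) and TP-0903 low for 114 (19.5%).

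**Figure D2:**
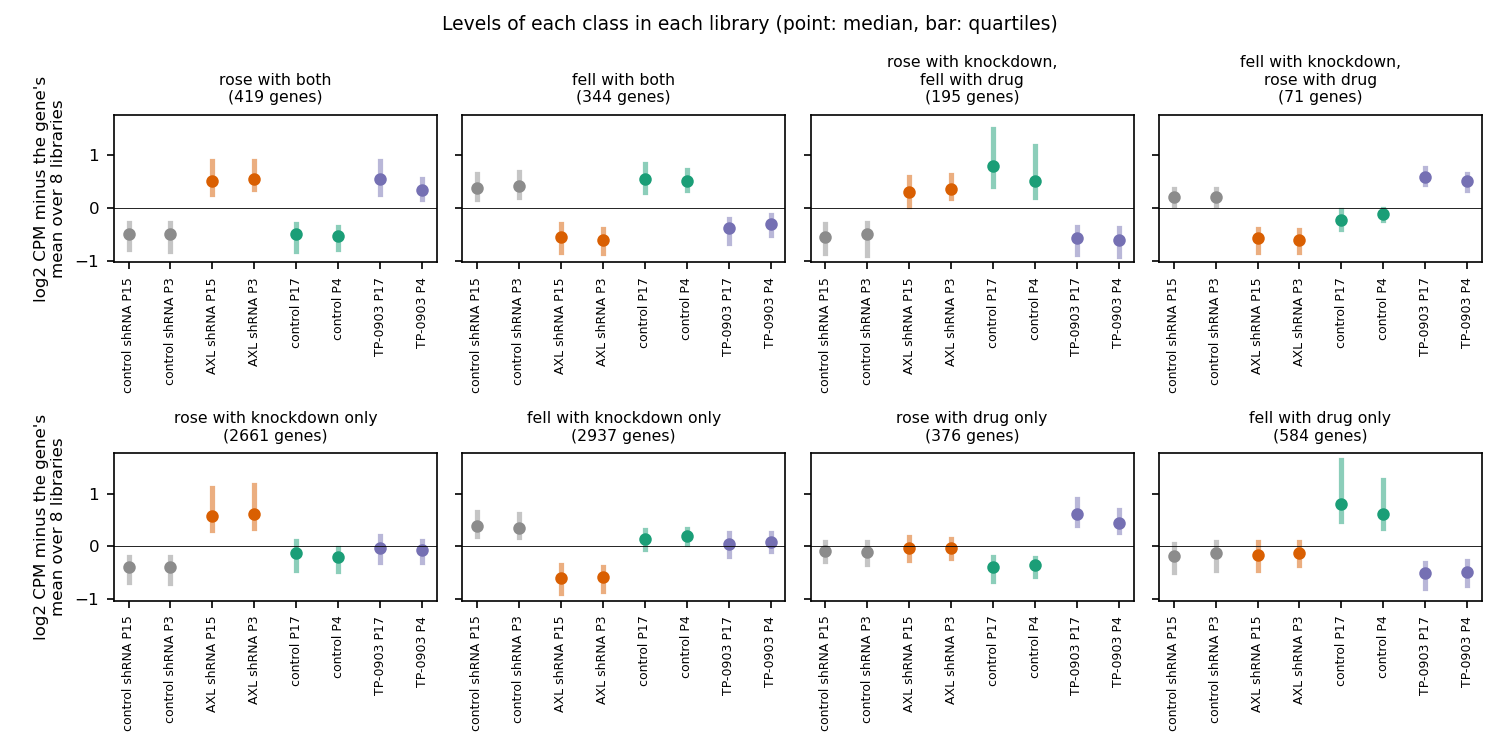
Level of each class in each library, as log2 CPM minus each gene's own mean over the 8 libraries (y axis), with points for the median and bars for the quartiles over the genes of the class. In the class that fell with the drug alone, control P17 and P4 have medians of 0.80 and 0.61, while control shRNA, AXL shRNA and TP-0903 all lie below 0.

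The control level therefore sits differently in each class. Genes that changed in the same direction had a median control gap near 0 (0.03 for those that rose and -0.12 for those that fell), and for 78.4% of them no single group stood apart. Genes that fell with the drug alone had a median control gap of -0.86, and the gap passed the test, lower with the hairpin, for 346 of 584. Genes that rose with the knockdown and fell with the drug had a median control gap of -1.19, lower for 152 of 195, and control stood apart as the high group for 55 of them (28.2%). Their median knockdown effect was 0.87, their median drug effect -1.37 and their median difference -2.47. In the reverse class of 71 genes the control gap was smaller (median 0.39, higher for 17), and AXL shRNA as the low group stood apart most often, for 14 genes (19.7%).

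**Figure D3:**
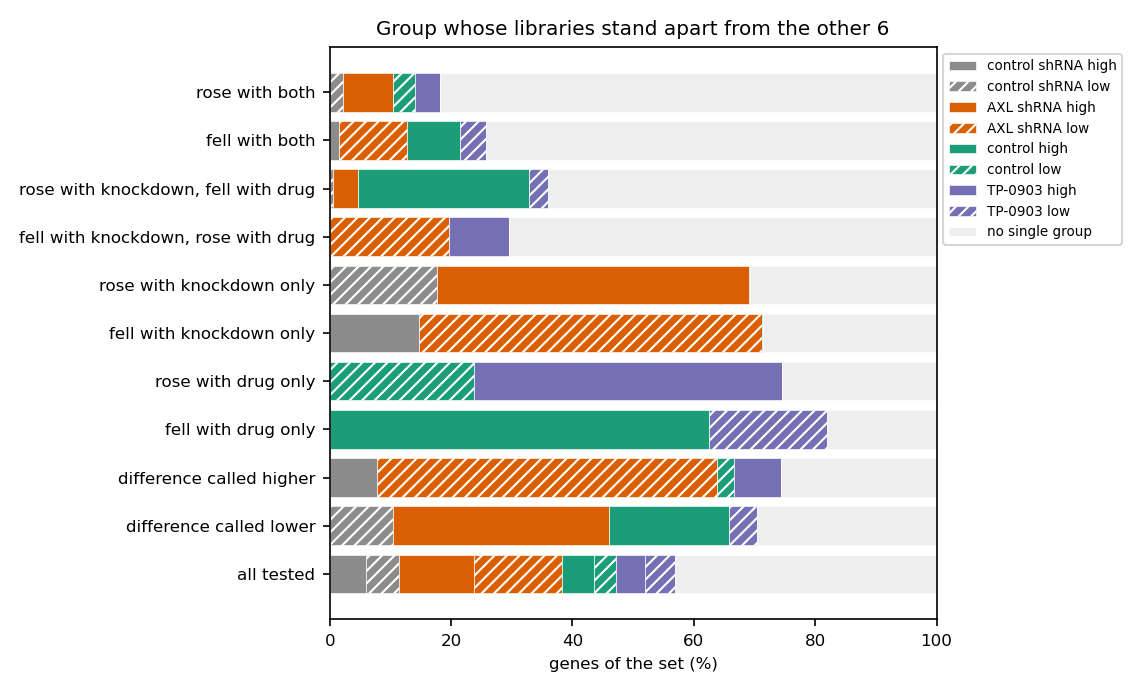
Share of genes (x axis, %) in each class, in the genes called in the difference and in all tested genes (y axis). Colours give the group whose fitted level stands apart, as high (plain) or low (hatched). Control high takes 62.5% of the genes that fell with the drug alone, against 5.32% of all tested genes.

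Among the genes called in the difference, AXL shRNA as the low group took 973 of the 1736 higher genes (56%). The 1909 lower genes had no single group apart for 564 (29.5%), AXL shRNA high for 682 (35.7%), control high for 377 (19.7%) and control shRNA low for 198 (10.4%). For the higher genes no single group stood apart for 444 (25.6%).

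Cell cycle genes were among those with control high: 43 G2/M, 30 G1/S and 19 repair genes, while most of the 377 genes lower in the difference with control high are on none of these lists. Control was the high group for 5.32% of all tested genes. Cell cycle genes encode the machinery of DNA replication and mitosis and are switched on together in dividing cells, through E2F factors at the start of S phase and through the MuvB complex, which binds the cell cycle homology region, before mitosis. Of 44 G1/S genes and 43 G2/M genes tested, 41 and 42 were called lower in the difference and none higher, against 10.8% of all genes lower. Their median differences were -2.84 and -3.08, and 23 of 25 genes of homologous recombination and Fanconi repair were lower with a median of -2.85. Without any 1 library these counts stayed at or above 39, 40 and 23. With fewer cells in cycle or less of these RNAs per cell, bulk values would look the same: fewer cells of a type and less RNA per cell cannot be told apart here.

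The levels of these genes show where the difference lies. HMMR, which binds hyaluronan and the mitotic spindle, stood at 6.21 and 6.37 CPM in control shRNA, 8.85 and 7.96 CPM in AXL shRNA, 82.6 and 64.2 CPM in control and 10.1 and 8.52 CPM in TP-0903. Both control libraries lay far above the other 6, which formed 1 low cluster. Its drug effect was -2.98 (SE 0.17), its knockdown effect 0.42 (SE 0.17) and its difference -3.40 (SE 0.24, edgeR adjusted p 0.000851). RRM2, a subunit of ribonucleotide reductase, stood at 16.5 and 18.7, 19.4 and 27.9, 208 and 177 and 14.2 and 15.7 CPM in the same order of groups, again with control alone high and a control gap of -3.45 (SE 0.20, adjusted p 0.000733). CDC45, a part of the replicative helicase, had 3.6 and 3.89 CPM in control shRNA, 4.26 and 4.8 CPM in AXL shRNA, 30.7 and 26.2 CPM in control and 2.04 and 2.34 CPM in TP-0903, for a difference of -3.97 (SE 0.26, adjusted p 0.000851). MKI67, the gene of the Ki-67 antigen, named after its values were seen, had 28.6 and 28.5, 30.3 and 26.9, 381 and 238 and 46.7 and 33.3 CPM in this order, and its knockdown effect was 0.00 (SE 0.24).

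For the 43 G2/M, 44 G1/S and 25 repair genes the control gap was called lower for 42, 41 and 23 of them, with medians of -3.13, -1.93 and -2.31, against 6.09% of all genes. Set against control shRNA, TP-0903 was higher for 9 G2/M genes and lower for none (median 0.43), higher for 4 and lower for 13 G1/S genes (median -0.40), and lower for 6 repair genes and higher for none (median -0.34). Against control shRNA in its own arm, 13 G2/M, 21 G1/S and 7 repair genes rose with the knockdown, while 1, 4 and 2 fell. Of all genes, 18.5% rose and 19% fell with the knockdown. These rises depended on the scaling: on log2 TPM 6, 11 and 1 rose, while 1, 4 and 2 fell. The median knockdown effects were 0.35, 0.53 and 0.24 in the count fit and 0.07, 0.21 and 0.05 on log2 TPM.

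Of the 195 genes that rose with the knockdown and fell with the drug, 17 were on the G1/S list, 13 on the G2/M list and 7 on the repair list. The class held 1.1% of all tested genes. Of the 266 genes of both opposite classes, 119 stayed opposite on log2 TPM and 30 against a fold of 1.5. ORC6, a subunit of the origin recognition complex, stood at 9.13 and 8.32 CPM in control shRNA and 6.67 and 5.39 CPM in TP-0903 against 32.3 and 45.9 CPM in AXL shRNA and 44.7 and 37.5 CPM in control. Its groups form a low and a high pair that do not overlap, with a knockdown effect of 2.16, a drug effect of -2.77 and a difference of -4.93 (SE 0.30, edgeR adjusted p 0.000851). MCM5, of the replicative helicase, stood at 25 and 22.8 CPM in control shRNA, 53.2 and 62.6 CPM in AXL shRNA, 145 and 126 CPM in control and 17.7 and 20 CPM in TP-0903, so that AXL shRNA came between a low pair and control. MCM3, of the same helicase, stood at 49.1 and 52.2, 86.5 and 91.9, 166 and 139 and 33.4 and 36.3 CPM in this order, and the spindle checkpoint kinase BUB1B at 7.13 and 8.05, 14.8 and 15.2, 80 and 56.1 and 9.47 and 8.96 CPM. Their differences were -2.95 (SE 0.17) and -3.87 (SE 0.26), with the control libraries highest in both. HELLS, a chromatin remodeller, and AURKA, a mitotic kinase, had differences of -3.71 (SE 0.24) and -3.66 (SE 0.22), with AURKA at 44.4 and 49.7 CPM in AXL shRNA and 146 and 114 CPM in control. Of the 5 genes chosen for this class, UNC13A, a priming factor of vesicle release, did not share the control gap (-0.07, SE 0.16): it stood at 18.1 and 15.1 CPM in control shRNA and 17.1 and 17.6 CPM in control, with 86.6 and 73.1 CPM in AXL shRNA and 7.44 and 6 CPM in TP-0903.

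The start-site sequences of 5 of these genes are shown because motifs known from cell cycle promoters were more frequent in this pattern than over all tested genes. Each runs from 120 bases before to 30 after the RefSeq start (GRCh38.p14), 5′ to 3′ on the gene's strand. Capitals mark CCAAT boxes (CCAAT, or ATTGG for the other strand) in HMMR, CDC45, MCM3 and ORC6, the cell cycle homology region (TTTGAA) in HMMR and BUB1B, and the E2F motif (GCGGGAA) in MCM3; in HMMR a forward and a reverse CCAAT box overlap. HMMR lies at chr5:163460512-163460661, plus strand; BUB1B at chr15:40160949-40161098, plus strand; CDC45 at chr22:19479800-19479949, plus strand; MCM3 at chr6:52284713-52284862, minus strand; and ORC6 at chr16:46689539-46689688, plus strand.
HMMR: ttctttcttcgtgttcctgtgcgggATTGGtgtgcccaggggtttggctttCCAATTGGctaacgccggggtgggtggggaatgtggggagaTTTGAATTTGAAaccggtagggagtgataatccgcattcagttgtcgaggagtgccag
BUB1B: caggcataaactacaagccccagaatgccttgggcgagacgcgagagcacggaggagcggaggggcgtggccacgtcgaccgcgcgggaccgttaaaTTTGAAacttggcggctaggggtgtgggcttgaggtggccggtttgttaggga
CDC45: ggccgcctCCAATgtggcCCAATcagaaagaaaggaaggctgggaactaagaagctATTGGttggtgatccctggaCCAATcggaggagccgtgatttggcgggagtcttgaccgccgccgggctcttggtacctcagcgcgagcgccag
MCM3: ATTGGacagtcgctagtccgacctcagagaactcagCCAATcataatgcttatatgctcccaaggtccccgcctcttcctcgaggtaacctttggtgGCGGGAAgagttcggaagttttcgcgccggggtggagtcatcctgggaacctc
ORC6: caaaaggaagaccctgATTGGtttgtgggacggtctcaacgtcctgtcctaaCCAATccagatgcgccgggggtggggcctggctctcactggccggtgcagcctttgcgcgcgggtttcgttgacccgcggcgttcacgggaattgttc

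Motifs were counted on both strands in the stretch from 250 bases before to 50 after the start, which the table held for 12263 of the 17676 tested genes. The CCAAT box was in 58.1% of the 296 promoters of genes called in the difference with control high, against 36.1% of all tested and 35.7% of the 27305 promoters kept. The cell cycle homology region was in 31.1% of them, against 9.98% and 15.4%, and the E2F motif in 20.6%, against 9.87% and 6.56%. For genes that fell with the drug alone the shares were 52.8%, 23.3% and 21.1%, and for those that rose with the knockdown and fell with the drug 54.7%, 22.6% and 24.5%. Genes called with AXL shRNA high had 31.5%, 10.2% and 9.12%, near those of all tested genes. In the G2/M list 69.4% of 36 promoters held the cell cycle homology region, and in the G1/S list 47.2% of 36 held the E2F motif. A match says that the letters are there and not that a factor was bound.

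**Figure D4:**
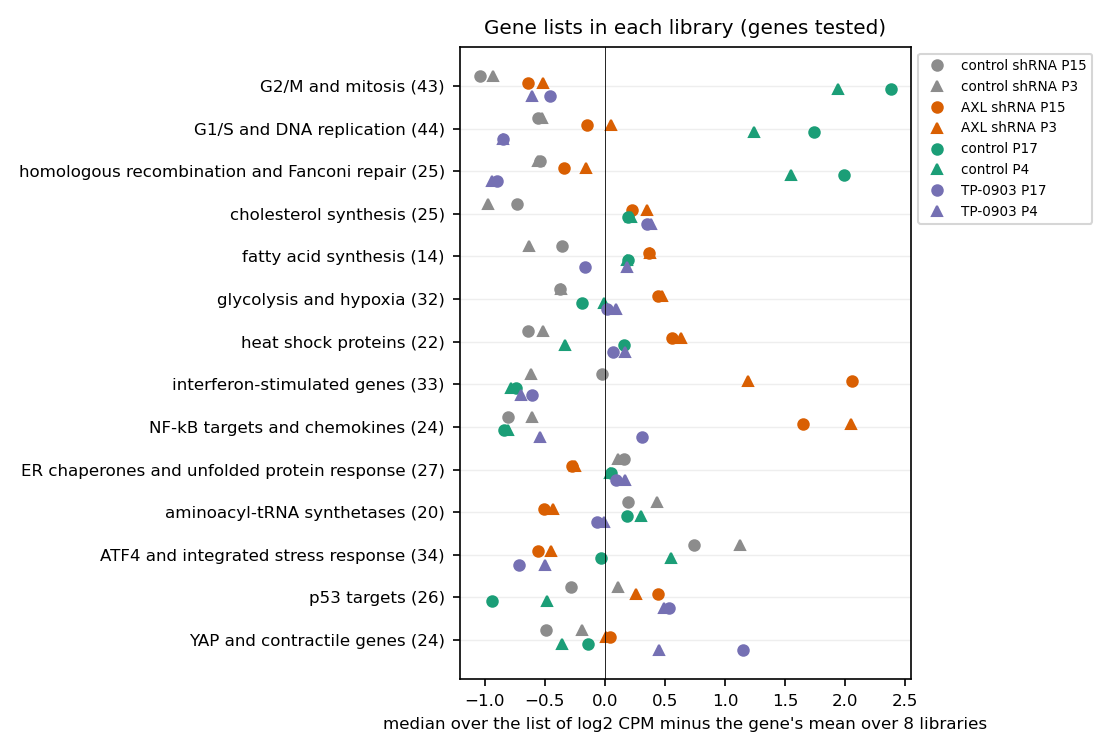
Median level of 14 gene lists in each library (x axis, log2 CPM minus each gene's mean over the 8 libraries), with circles for P15 and P17, triangles for P3 and P4, colours for the groups and the number of genes tested beside each name (y axis). Control stands alone on the right for the 3 cell cycle and repair lists, control shRNA alone on the left for cholesterol synthesis, and AXL shRNA alone on the right for interferon and NF-kB genes.

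Genes of lipid synthesis showed the second place where a control sets the difference, a low level in control shRNA. They are regulated by the SREBP factors, which respond to sterol levels in the membrane. Of 25 genes on the cholesterol list, 20 rose and 2 fell with the knockdown, 2 rose and 1 fell with the drug, and 15 were lower in the difference (median -1.01) while 2 were higher; 9 were lower without control P17. Over all genes, 18.5% rose and 19% fell with the knockdown, 4.9% rose and 6.35% fell with the drug, and 10.8% were lower in the difference, so that the drug calls of this list are near the background. The control gap was called lower for 17 of the 25, with a median of -0.91, against 6.09% of all genes. IDI1, which isomerises isopentenyl diphosphate, stood at 44.8 and 31.9 CPM in control shRNA, 146 and 139.6 CPM in AXL shRNA, 101 and 81.3 CPM in control and 88.8 and 99.5 CPM in TP-0903. The control hairpin libraries were the lowest, by -1.25 (SE 0.18) against control, and the difference was -1.85 (SE 0.26, edgeR adjusted p 0.00422). DHCR7, the last enzyme of the pathway, stood at 57.7 and 48.1, 132 and 136, 112 and 108 and 118 and 123 CPM in this order, with a control gap of -1.06 (SE 0.12). The drug effects on IDI1 and DHCR7 were 0.05 and 0.13. Of the 25 genes, control shRNA stood apart as the low group for 15, against 5.52% of all tested genes.

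Fatty acid synthesis and glycolysis went the same way in part. The control gap was lower for 6.09% of all genes. Of 14 fatty acid genes 8 were lower in the difference (median -0.92, against 10.8% of all genes lower), but 4, 4, 3 and 5 without control shRNA P3, AXL shRNA P15, control P17 and TP-0903 P17, and the control gap was lower for 7. FASN, the fatty acid synthase, stood at 177 and 184 CPM in control shRNA, 874 and 794 CPM in AXL shRNA, 512 and 432 CPM in control and 385 and 484 CPM in TP-0903. Its AXL shRNA libraries were also the highest, so both hairpin groups enter its difference of -2.33 (SE 0.22, edgeR adjusted p 0.00136). Of 32 genes of glycolysis and the hypoxia response 15 were lower and 1 higher in the difference (10.8% and 9.82% of all genes), with 9, 8 and 9 lower without control P17, TP-0903 P17 and TP-0903 P4. ALDOA and PGAM1, glycolytic enzymes, had control gaps of -0.78 and -0.70 and differences of -1.11 (SE 0.16) and -1.20 (SE 0.17).

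Heat shock proteins, which fold other proteins, rose with the knockdown in 18 of 22 genes and with the drug in 4, and 12 were lower in the difference, 7 without TP-0903 P17 (18.5%, 4.9% and 10.8% over all genes). Here control shRNA low and AXL shRNA high each took 6 genes, against 5.52% and 12.3% of all tested genes. SERPINH1, the collagen chaperone, stood at 125 and 126 CPM in control shRNA and 540.2 and 472 CPM in AXL shRNA, against 166 and 128 CPM in control and 136 and 113 CPM in TP-0903, which puts it with the genes that were high in AXL shRNA alone.

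High levels in AXL shRNA, with both controls and the drug alike, were the most frequent pattern among the genes lower in the difference. Interferon-stimulated genes, which carry out the antiviral response, showed it in 21 of 33: 24 of them rose with the knockdown and none fell, 4 rose and 1 fell with the drug, and 14 were lower in the difference with a median of -1.76. The shares over all genes were 12.3% with AXL shRNA high, 18.5% rising with the knockdown, 4.9% rising with the drug and 10.8% lower. With each library left out in turn, the median ran from -2.25 without control shRNA P15 to -1.43 without AXL shRNA P15. Fewer genes passed as lower in each of these fits but that without AXL shRNA P3, where more did (median -2.11). With the P number as a block 23 were lower. OAS1, a sensor of double-stranded RNA, stood at 25.5 and 23.9 CPM in control shRNA, 106 and 95.8 CPM in AXL shRNA, 22.2 and 38.1 CPM in control and 21.4 and 28.7 CPM in TP-0903, and its difference was -2.30 (SE 0.36, edgeR adjusted p 0.00602). Its relative OAS3 stood at 35.9 and 36.8, 210.2 and 176, 99 and 94.1 and 54.2 and 51.6 CPM in this order: it rose with the knockdown (2.41) and fell with the drug (-0.87), from a control level above that of control shRNA (control gap -1.41, SE 0.12). IFI27, a mitochondrial interferon-induced protein, was low outside AXL shRNA, at 0.369 and 0.359, 8.03 and 3.86, 0.379 and 0.347 and 0.401 and 0.322 CPM.

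NF-kB targets and chemokines, genes of inflammation, had AXL shRNA high for 11 of 24, against 12.3% of all tested genes. Of them, 20 rose and 1 fell with the knockdown, 4 rose and 1 fell with the drug, and 11 were lower in the difference with a median of -1.95 (7 without control P4 and 7 without TP-0903 P4), beside the same 18.5%, 4.9% and 10.8% of all genes. CXCL8, the neutrophil chemokine interleukin 8, stood at 20 and 34.9 CPM in control shRNA, 212 and 280.4 CPM in AXL shRNA, 7.47 and 8.28 CPM in control and 7.62 and 4.63 CPM in TP-0903. Its control gap was in the other direction, 1.80 (SE 0.32, adjusted p 0.019), so the control level, below that of control shRNA, left the difference of -3.53 (SE 0.46, edgeR adjusted p 0.00333) smaller in size than the treated gap of 5.33. BIRC3, an inhibitor of cell death, had a knockdown effect of 3.30 (SE 0.30) and a drug effect of 0.94 (SE 0.27, adjusted p 0.0691), with a difference of -2.37 (SE 0.39).

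The start-site sequences of 3 of these genes, in the same format, hold the motifs after which the lists are known. Capitals mark the interferon response element (GAAA, any 2 bases and GAAA, or TTTC, any 2 bases and TTTC for the other strand) in OAS3 and IFI27 and the NF-kB motif (GGG, any 2 bases and TTTCC) in UBD. OAS3 lies at chr12:112938354-112938503, plus strand; IFI27 at chr14:94110616-94110765, plus strand; and UBD at chr6:29559703-29559852, minus strand. In the stretch of 300 bases the interferon element was in 64% of 25 promoters of the interferon list against 2.87% of all tested genes, and the NF-kB motif in 57.1% of 21 promoters of its list against 2.12%. Among all genes called in the difference with AXL shRNA high the shares were 3.91% and 2.79%, close to the background, and the AP-1 motif (TGACTCA) was in 5.77% against 3.44%.
OAS3: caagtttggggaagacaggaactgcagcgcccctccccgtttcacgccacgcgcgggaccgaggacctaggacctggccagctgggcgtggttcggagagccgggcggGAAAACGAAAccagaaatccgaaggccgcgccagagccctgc
IFI27: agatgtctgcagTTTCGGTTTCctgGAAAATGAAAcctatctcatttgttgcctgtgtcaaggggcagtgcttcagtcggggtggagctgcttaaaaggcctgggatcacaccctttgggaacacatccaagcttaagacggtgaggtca
UBD: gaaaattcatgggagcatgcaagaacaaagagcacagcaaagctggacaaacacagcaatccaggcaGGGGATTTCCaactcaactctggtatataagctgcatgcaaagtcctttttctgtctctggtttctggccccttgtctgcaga

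Among protein-coding genes with at least 5 CPM on average, the lowest differences belonged to genes read almost nowhere but in AXL shRNA. UBD, a ubiquitin-like modifier induced by cytokines, had 1476 and 2028 counts in AXL shRNA, 7 and 0 in control shRNA, 24 and 13 in control and 27 and 30 in TP-0903. SCG3, a granin of secretory granules, had 754 and 1159 counts in AXL shRNA and 4, 14 and 7 in all in control shRNA, control and TP-0903. For such genes the fitted fold change depends on the counts added before taking logs, so no fold is given. OR2I1P, which overlaps UBD on the other strand, had 662 and 1058 counts in AXL shRNA, and without stated strand its reads and those of UBD cannot be told apart. KRT6A, a keratin of stressed epithelium, had 1274 and 3833 counts in AXL shRNA and 17 to 55 in all in each other group, and its call was lost without control P17 (edgeR adjusted p 0.12).

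Other genes of this group had more reads outside AXL shRNA. CHRNB2, a nicotinic receptor subunit, stood at 0.769 and 1.26 CPM in control shRNA, 39.5 and 32.9 CPM in AXL shRNA, 0.703 and 0.967 CPM in control and 0.309 and 0.498 CPM in TP-0903, with a difference of -6.20 (SE 0.47, edgeR adjusted p 0.00103). VGF, a neuropeptide precursor, and CCL26, an eotaxin chemokine, had differences of -5.51 (SE 0.84) and -5.67 (SE 0.50). RAB3B, a GTPase of regulated secretion, stood at 33.8 and 33.7 CPM in control shRNA, 295 and 356 CPM in AXL shRNA, 58.5 and 53.1 CPM in control and 69.3 and 78.4 CPM in TP-0903. SCAMP5, a protein of secretory vesicles, stood at 17.8 and 16.2, 88.6 and 81.8, 20.9 and 19.7 and 18.1 and 17.6 CPM. In both, the AXL shRNA libraries lay above the other 6; SCAMP5 overlaps RPP25 on the other strand. ZNF121, a zinc finger protein, stood at 11.5 and 13, 79.5 and 83.1, 11.1 and 12.3 and 14.3 and 12.6 CPM, with the same single high group. IL6R, a subunit of the interleukin 6 receptor, stood at 12.4 and 14.4 CPM in control shRNA, 105 and 87.3 CPM in AXL shRNA, 10.3 and 11.2 CPM in control and 12.6 and 14.3 CPM in TP-0903, for a difference of -2.52 (SE 0.21, adjusted p 0.00118).

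A low level in AXL shRNA was the commonest pattern among genes higher in the difference. Of the 10 highest differences, 7 showed it. POLR3GL, a subunit of RNA polymerase III, stood at 10.9 and 10.7 CPM in control shRNA, 1.12 and 1.28 CPM in AXL shRNA, 7.09 and 8.82 CPM in control and 9.44 and 11 CPM in TP-0903, for a difference of 3.52 (SE 0.29, edgeR adjusted p 0.00116). KAT2B, a histone acetyltransferase, stood at 22 and 24.7, 2.17 and 3.98, 25.9 and 25 and 29.2 and 29.2 CPM in this order, and CASC4, a Golgi membrane protein, at 169 and 144, 20.6 and 25, 111 and 124 and 134 and 147 CPM. In all 3 the AXL shRNA libraries were below the other 6. SFRP4, a secreted antagonist of Wnt signals, had its lowest and highest levels in the treated groups, with 1.9 and 2.74 CPM in AXL shRNA, 9.41 and 10.5 CPM in control shRNA, 5.49 and 11.5 CPM in control and 17.2 and 31.7 CPM in TP-0903, but its drug effect did not pass (1.52, adjusted p 0.057) and its knockdown call was lost without AXL shRNA P15 (adjusted p 0.0518). SMOC1, a matrix protein, differed in kind: control shRNA was the high group at 285 and 198 CPM, against 26.3 and 9.48 CPM in AXL shRNA, 39.1 and 50.6 CPM in control and 31.7 and 36.7 CPM in TP-0903.

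Genes of protein folding in the endoplasmic reticulum (ER) were in this group. Of 27 chaperones and genes of the unfolded protein response, 13 fell and 3 rose with the knockdown, none passed with the drug, and 11 were higher and 1 lower in the difference (median 0.58); 5 to 7 were higher without control shRNA P15 (6), control shRNA P3 (7), AXL shRNA P15 (6), AXL shRNA P3 (7), control P17 (5), TP-0903 P17 (6) or TP-0903 P4 (6). Over all genes 19% fell and 18.5% rose with the knockdown and 9.82% were higher in the difference. SEL1L, part of the complex that removes misfolded proteins from the ER, stood at 242 and 287 CPM in control shRNA, 48.9 and 54.8 CPM in AXL shRNA, 148 and 150.2 CPM in control and 186 and 186 CPM in TP-0903. AXL shRNA was low and control shRNA the highest, so the control gap of 0.83 (SE 0.12, adjusted p 0.0084) and the treated gap of -1.84 add up to the difference of 2.67 (SE 0.17, edgeR adjusted p 0.000851). DNAJC3, a co-chaperone, and CANX, the lectin chaperone calnexin, had differences of 1.76 (SE 0.21) and 1.18 (SE 0.21). The CCAAT box, which is part of the known ER stress element, was in 83.3% of 24 promoters of this list, against 36.1% of all tested, and in like shares of the promoters of cholesterol synthesis (83.3% of 18), clustered histones (83.3% of 12) and the G2/M list (77.8% of 36).

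Aminoacyl-tRNA synthetases load tRNAs with amino acids. Of 20, 13 fell and 3 rose with the knockdown, 3 fell with the drug, and 7 were higher and 3 lower in the difference (11 higher with the P number as a block). Over all genes 19% fell and 18.5% rose with the knockdown, 6.35% fell with the drug, and 9.82% were higher and 10.8% lower in the difference, so the 3 that rose and the 3 that were lower are near the background. Without AXL shRNA P15, AXL shRNA P3, control P17, TP-0903 P17 and TP-0903 P4 the higher count was 4, 3, 3, 2 and 4, and no gene was lower without control shRNA P15, control P17 or TP-0903 P4, and 1 without AXL shRNA P3. GARS, the glycine enzyme, stood at 297 and 363 CPM in control shRNA, 61.2 and 69.4 CPM in AXL shRNA, 198 and 285 CPM in control and 151 and 150.3 CPM in TP-0903, with AXL shRNA lowest and TP-0903 below both controls. Its difference was 1.66 (SE 0.27, edgeR adjusted p 0.00677) beside a drug effect of -0.68 (adjusted p 0.0616).

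The amino acid response, run by ATF4, had few calls in the difference. Of 34 genes of the integrated stress response, 21 fell and 1 rose with the knockdown, 11 fell with the drug, 10 fell with both (19%, 6.35% and 1.95% of all genes fell so), and 3 were higher and 1 lower in the difference (16 and 2 with the P number as a block; 1 higher without control shRNA P15, control shRNA P3, AXL shRNA P15, control P17 or TP-0903 P4, and 12 higher without control P4). PHGDH, the entry enzyme of serine synthesis, and ASNS, asparagine synthetase, are named after their values were seen. PHGDH stood at 107 and 158 CPM in control shRNA, 7.16 and 12.6 CPM in AXL shRNA, 61.2 and 92.6 CPM in control and 8.3 and 13 CPM in TP-0903. Both treated groups lay below both controls, with effects of -3.74 and -2.85 and a difference of 0.89 (SE 0.50, edgeR adjusted p 0.247). ASNS stood at 157 and 224, 21.2 and 26.2, 76 and 136 and 21.5 and 28.9 CPM, and its drug call was lost without TP-0903 P17 (adjusted p 0.0741). The list's control gap was higher in control shRNA for 5 genes, against 3.06% of all genes, with a median of 0.70.

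The sequences of SEL1L and ASNS are set side by side because the first marks a fall with the knockdown alone and the second a fall with both. Capitals mark CCAAT boxes in SEL1L (chr14:81533824-81533973, minus strand) and the amino acid response element (TGATGNAA) in ASNS (chr7:97872379-97872528, minus strand). That element was in 37.5% of 16 promoters of the synthetase list and 20.7% of 29 of the stress response list, against 1.77% of all tested genes.
SEL1L: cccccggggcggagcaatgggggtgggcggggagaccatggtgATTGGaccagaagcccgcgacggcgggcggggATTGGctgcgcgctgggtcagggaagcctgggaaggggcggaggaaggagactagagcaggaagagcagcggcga
ASNS: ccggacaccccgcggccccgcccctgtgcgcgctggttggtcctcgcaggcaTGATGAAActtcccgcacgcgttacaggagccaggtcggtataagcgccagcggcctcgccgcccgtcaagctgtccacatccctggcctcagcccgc

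Genes that rose with the drug alone were led by a high TP-0903 level. Of the 4 chosen by smallest p, TTLL3, a tubulin-modifying enzyme, stood at 17.6 and 18.4 CPM in control shRNA, 16.2 and 17.3 CPM in AXL shRNA, 11.6 and 11.5 CPM in control and 28.1 and 29 CPM in TP-0903. DGKA, a diacylglycerol kinase, stood at 30.3 and 30.4, 28.8 and 25.7, 18.1 and 21.2 and 53.6 and 46.1 CPM, and CYFIP2, a regulator of actin through the WAVE complex, at 71.7 and 109.7, 62.3 and 59.3, 41.3 and 60.3 and 185 and 182 CPM. In each the TP-0903 libraries were above the other 6, with differences of 1.41, 1.49 and 2.43 (SE 0.17, 0.19 and 0.33). Each overlaps another gene on the other strand (RPUSD3, PYM1 and ADAM19). TTLL3 also overlaps ARPC4-TTLL3 on its own strand, which had 5.316 CPM on average and a difference of 1.744.

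Targets of p53, the damage-response factor that is known to be unmutated in A549, rose with the drug in 17 of 26 genes, against 4.9% of all genes. Of them, 11 rose and 2 fell with the knockdown, 8 rose with both, 7 rose with the drug alone, and 9 were higher and 1 lower in the difference (median 0.60); leaving out any 1 library left 7 to 10 higher and none lower, and the block gave 14 higher. Over all genes 18.5% rose and 19% fell with the knockdown, 2.37% rose with both and 2.13% rose with the drug alone. In the difference 9.82% of all genes were higher and 10.8% lower. Of the 26 p53 targets, the control gap was higher for 6 (3.06% of all genes). Control stood apart as the low group for 6 of them (3.58% of all genes). ZMAT3, an RNA-binding protein, shows this: it stood at 92.1 and 83.7 CPM in control shRNA, 123 and 93.8 CPM in AXL shRNA, 29.1 and 34.8 CPM in control and 132 and 117 CPM in TP-0903. The control libraries were the lowest, and with a drug effect of 1.96 (SE 0.17) TP-0903 stood within or just above the range of the hairpin groups. The difference was 1.66 (SE 0.23, edgeR adjusted p 0.00422). CDKN1A, the cyclin-dependent kinase inhibitor p21, named after its values were seen, had 308 and 440.3, 979 and 829.6, 169 and 268 and 636 and 602 CPM and no call of the difference (0.23, SE 0.35, adjusted p 0.682).

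Contractile and YAP target genes rose with the drug in 14 of 24, against 4.9% of all genes. With the knockdown 8 rose and 2 fell, beside 18.5% and 19% of all genes. In the difference 6 were higher and 1 lower (median 0.71), beside 9.82% and 10.8% of all genes. The higher count was 2, 2, 2, 3 and 2 without control shRNA P15, control shRNA P3, AXL shRNA P15, control P4 and TP-0903 P17, 9 without TP-0903 P4, and 15 with the block. ACTA2, smooth muscle actin, stood at 30 and 28 CPM in control shRNA, 33.1 and 32.1 CPM in AXL shRNA, 13.6 and 19.1 CPM in control and 71.1 and 55.7 CPM in TP-0903. It rose with the drug and not with the knockdown, for a difference of 1.78 (SE 0.26, edgeR adjusted p 0.00508); it overlaps FAS, itself a p53 target, on the other strand. MYL9, a myosin light chain named after its values were seen, rose in both arms (2.21 and 3.28).

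In the class that fell with the knockdown and rose with the drug, HRAS, a RAS GTPase, stood at 27 and 30 CPM in control shRNA, 9.9 and 9.58 CPM in AXL shRNA, 36.6 and 35 CPM in control and 74.8 and 62.7 CPM in TP-0903. PALLD, the actin crosslinker palladin, stood at 192 and 205, 55.1 and 63.2, 252 and 247 and 569 and 448 CPM in this order. In both genes the controls lay close together (control gaps -0.33 and -0.33, adjusted p 0.142 and 0.185) with AXL shRNA below and TP-0903 above all control libraries. The differences were 2.49 (SE 0.18) and 2.77 (SE 0.21), with edgeR adjusted p of 0.000873 and 0.000901. PALLD overlaps DDX60L on the other strand. PHLDA3, a p53 target that restrains AKT, went the same way from unequal controls, at 99.2 and 120.4, 55 and 61.3, 68.6 and 78 and 171 and 162 CPM (control gap 0.58, adjusted p 0.0394).

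Of 34 receptor tyrosine kinases and ligands 4 were higher and 2 lower in the difference, near or below the 9.82% and 10.8% of all genes, and no single group stood apart for 19. The higher count was 2 without control shRNA P15, AXL shRNA P3, control P4 or TP-0903 P17, and the lower count 0 or 1 without any library but control P4 or TP-0903 P4. MYC, the growth-promoting transcription factor, stood at 97.2 and 148 CPM in control shRNA, 288 and 287 CPM in AXL shRNA, 86.8 and 105 CPM in control and 73.9 and 73.2 CPM in TP-0903, for a difference of -1.61 (SE 0.28, edgeR adjusted p 0.00864). FGF2, a growth factor that signals through the FGF receptors, went the other way at 119.7 and 113, 51 and 62, 149 and 112 and 211 and 176 CPM in this order, for a difference of 1.61 (SE 0.25, adjusted p 0.00558). The AXL shRNA libraries were above the other 6 in MYC and below them in FGF2. YAP1, the coactivator of the Hippo pathway, stood at 150.2 and 143, 87.8 and 88.4, 137 and 131 and 140.1 and 150.3 CPM, lowest in AXL shRNA, and SPRED2, an inhibitor of RAS signalling, had a difference of 1.04 (SE 0.16). Of 31 genes of MYC and ribosome biogenesis 12 were lower and none higher in the difference (10.8% and 9.82% of all genes), but 5, 7, 5, 5 and 4 without AXL shRNA P15, AXL shRNA P3, control P17, TP-0903 P17 and TP-0903 P4; SRM, spermidine synthase, had a difference of -1.36 (SE 0.17).

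**Figure D5:**
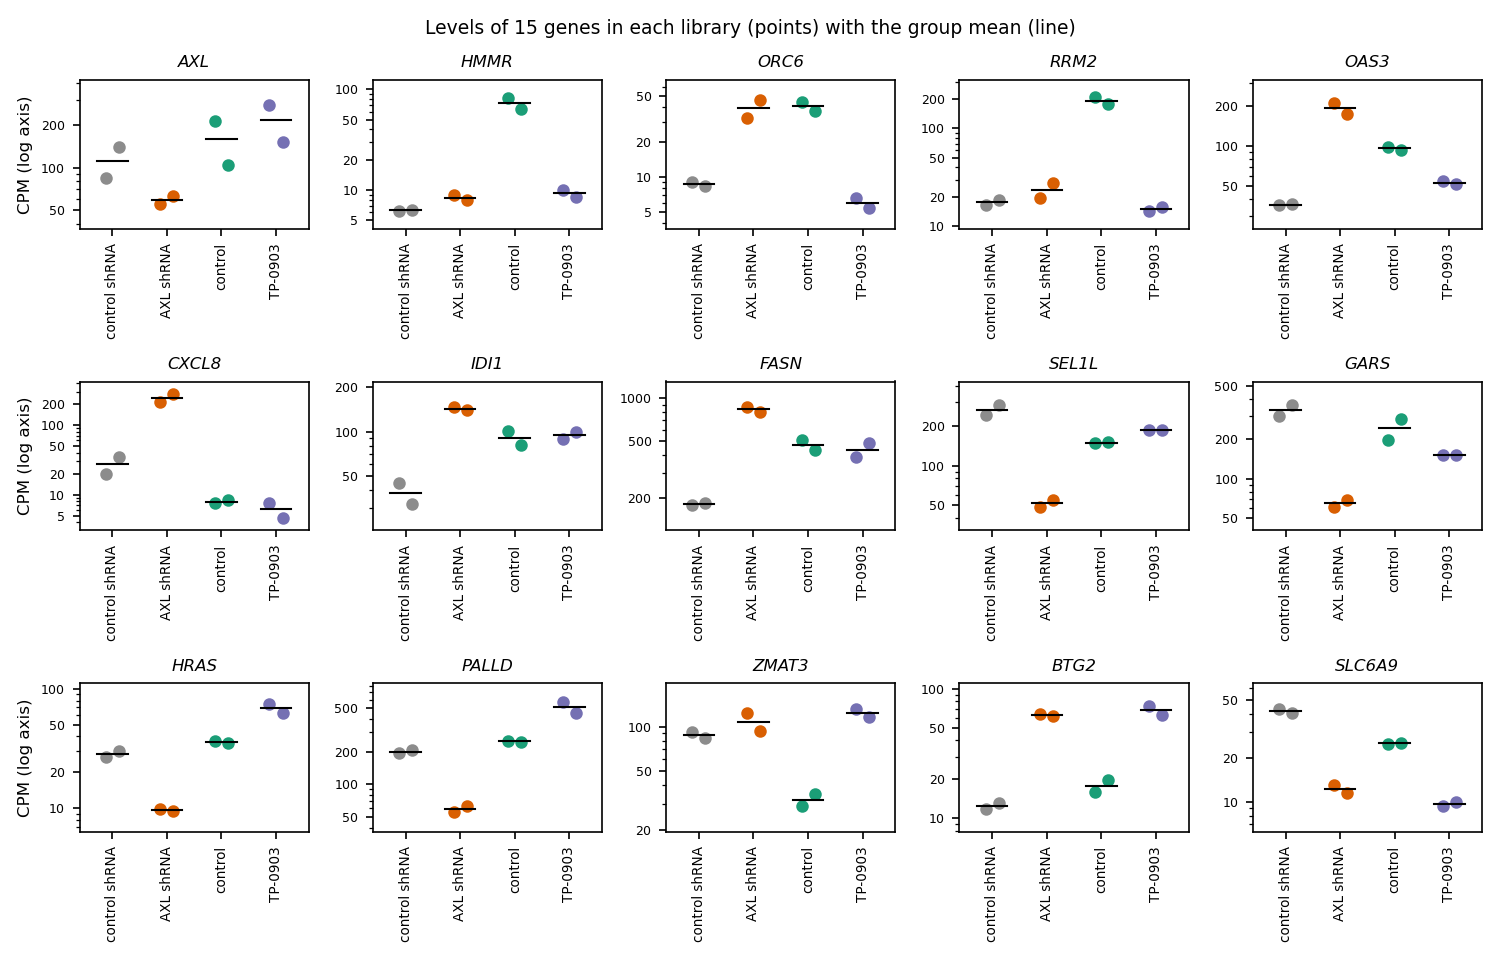
Level in CPM (y axis, log scale) of 15 genes in each library, as points by group (x axis), with lines for the group means. HMMR and RRM2 are high in control alone, IDI1 low in control shRNA alone, CXCL8 high and SEL1L low in AXL shRNA, while BTG2 is higher and SLC6A9 lower in both treated groups than in both controls.

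Among genes that changed in the same direction, those that rose had median effects of 1.01 with the knockdown and 0.97 with the drug, and those that fell -0.93 and -0.90. BTG2, an antiproliferative p53 target, stood at 11.8 and 13.1 CPM in control shRNA, 64.2 and 61.5 CPM in AXL shRNA, 16 and 19.8 CPM in control and 74 and 63.2 CPM in TP-0903. HSPB8, a small heat shock protein, stood at 35.5 and 28.7, 137 and 130.0, 19.8 and 22.5 and 81.6 and 66 CPM. In both genes the treated libraries were above all control libraries, and the differences were -0.39 (SE 0.20, edgeR adjusted p 0.212) and -0.26 (SE 0.22, adjusted p 0.44). SLC6A9, a glycine transporter, fell with both, from 43.5 and 40.8 CPM in control shRNA and 24.9 and 25.3 CPM in control to 13 and 11.4 CPM in AXL shRNA and 9.32 and 9.96 CPM in TP-0903. GPRC5A, a retinoic acid-induced receptor, rose in both arms but more with the knockdown (1.95 against 1.28), and its difference of -0.67 (SE 0.17, adjusted p 0.0336) was lost without any single library (adjusted p 0.056 to 0.122). A difference that misses the threshold does not show that the effects are equal: for HSPB8 the SE of 0.22 is close to the size of the difference.

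Exchanging the controls shows how the calls of each class move with them. Genes were sorted by calls against their own controls, so part of each class can be lost on exchange without a control gap. In the knockdown only class 5000 of 5598 genes had no called control gap. Of the 10089 genes that passed in neither arm, 7920 (78.5%) stayed. With AXL shRNA set against control and TP-0903 against control shRNA, 14 of the 195 genes that rose with the knockdown and fell with the drug stayed in their class (7.18%), as did 88 of the 584 that fell with the drug alone (15.1%); 337 of the latter (57.7%) were then called as falling with the knockdown alone. Of the genes that rose with both 270 of 419 (64.4%) stayed, of those that fell with both 193 of 344 (56.1%), of the knockdown only genes 1407 of 2661 (52.9%) up and 1546 of 2937 (52.6%) down, and of those that rose with the drug alone 152 of 376 (40.4%). In the class that fell with the knockdown and rose with the drug, 22 of 71 (31%) stayed and 30 (42.3%) then passed in neither arm. For the G2/M list the exchanged knockdown effect had a median of -2.75, with 42 of 43 genes lower. The exchanged drug effect of that list had a median of 0.43, with 9 higher. For cholesterol synthesis the exchanged drug effect was higher for 20 of 25 genes (median 1.22). For interferon genes, 29 of 33 were higher in AXL shRNA than in control, with a median of 2.67. These exchanged contrasts use the same 8 libraries and set each treatment against a control it was not paired with. They describe how calls move with the controls and are no measure of either treatment, and the shares that stayed test nothing.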

How the data were processed

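RNA sequencing of 8 A549 libraries (2 per group) gave a file of 58302 genes per library. Reads were aligned to GRCh38 with STAR (2.5.3a) and quantified with RSEM, per the submitters' processing notes (RSEM version and gene annotation: not given in the sources used here). Expected counts, as deposited, are estimates with no further normalization by the authors, and the deposited TPM values are scaled for length and depth. The deposited effective lengths (another RSEM column, in bases) served as offsets in an alternative.

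Expected counts were rounded, filtered with filterByExpr, scaled by TMM and tested with edgeR (4.0.16) in R (4.3.3), in a quasi-likelihood fit over all 8 libraries with 1 term per group, two-sided, with Benjamini-Hochberg adjustment over 17676 genes and a threshold of 0.05 (prior degrees of freedom 3.33). CPM use TMM-scaled totals. A simulation with known changes was used to test the scripts. Same-numbered libraries deviate together (r of 0.444 for P15 and P3, 0.45 for P17 and P4, against 0.171 to 0.309 for other pairs of groups). Each r covers 1 pair of groups, because both libraries of a group deviate from its mean in mirror image. The shared deviation was taken as pairing on that thin basis. The block adds terms and leaves fewer residual degrees of freedom than the 4 of the main fit, which limits its adjusted p-values and calls. Alternatives used DESeq2 (1.42.0), limma (3.58.1), log2(TPM + 1), other filters, scalings and blocks, each library left out, and exchanged controls.

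The members and the 33 gene lists were chosen with earlier results of these data known. Named genes were AXL and 9 relatives or mediators, the 10 highest and 10 lowest differences with at least 5 CPM on average and both within-P drug effects on 1 side of both knockdown effects, the 4 or 5 smallest p-values per class (without that last condition for genes changing in the same direction) and up to 3 per list; not all are printed. Positions are from GENCODE 29, where 263 genes had none, and promoters from RefSeq (GRCh38.p14). Nextera XT with no strand stated leaves overlapping genes uncertain.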

Additional observations from a re-analysis of the deposited data

How the results depend on the processing

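Of 124 named genes past the threshold in the difference, 93 kept the call under the 18 alternatives that keep each treatment's own control, 99 without any single library and 123 with the replicate block, and none reversed in these; exchanged controls were not run gene by gene here, and over all genes 1235 of 3645 calls were shared and 400 had the opposite sign. Most of the named genes were chosen by the size or p-value of this same difference, many also by the order of the within-P effects. Their kept calls, above all with the block, follow in part from that choice and are no independent support. With the replicate block 3282 genes were higher and 3248 lower, with 2073 in the same direction, 830 opposite and 1744 with the drug alone. With the block in 2 levels 2609 were higher, 519 opposite and 1420 in the same direction. Tested against a fold of 1.5, 594 were higher and 854 lower, with 2417 knockdown only, 443 drug only, 75 same and 30 opposite. Without the filter on low counts the classes held 1598 (drug only), 487 (opposite) and 1430 (same) genes. On log2 TPM 1266 were lower and 164 opposite, and with exchanged controls 1713 were drug only and 495 opposite. Leaving out each library gave 847 to 1255 higher, 1008 to 1415 lower, 117 to 540 same, 86 to 181 opposite, 3738 to 5833 knockdown only and 286 to 1062 drug only genes. The cause of these shifts was not tested.

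With a limit of a smaller range for the group that stands apart, no single group took 59% of the higher and 63.2% of the lower differences. AXL shRNA then took 34% of the higher and 19.6% of the lower differences and 30.2% of the knockdown only class. Control took 11.9% of the lower differences, 29.3% of the drug only class, 41.6% of those that fell and 5.64% of the opposite classes. TP-0903 took 15.6% of the drug only class and 26.1% of those that rose, control shRNA 6.7% of the knockdown only class, and no group 97.5% of the same direction class. Differences that were not called changed sign for DST (0.00405 on log2 TPM), MAZ (-0.0993 with effective lengths) and RCCD1 (-0.92 on log2 TPM, -1.34 with effective lengths and -0.00376 to 0.273 with a library left out). With 2 libraries per group, few small differences can pass.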

Other observations

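Over all tested genes 20.6% passed the test of the difference, 9.82% higher and 10.8% lower. With the knockdown 18.5% rose and 19% fell, and with the drug 4.9% rose. Of 28 mesenchymal and matrix genes 16 rose and 2 fell with the knockdown and 5 rose with the drug, and 3 were higher and 4 lower in the difference (5 and 11 with the replicate block); 2 were lower without control shRNA P15, AXL shRNA P3, control P17 or TP-0903 P4, and 2 higher without control shRNA P15, control P4 or TP-0903 P17. SPARC, a matrix glycoprotein, stood at 9.41 and 5.69 CPM in control shRNA, 127 and 206 CPM in AXL shRNA, 19 and 14.7 CPM in control and 16.8 and 16.2 CPM in TP-0903, and COL3A1, a fibrillar collagen, at 2.03 and 2.84, 29.9 and 65.4, 3.92 and 7.14 and 2.13 and 3.49 CPM. Both were high in AXL shRNA alone, with differences of -4.49 (SE 0.43) and -5.26 (SE 0.68). Of 28 genes of epithelial junctions and keratins 12 rose and 5 fell with the knockdown, and 1 was higher and 6 lower in the difference (4 and 12 with the block; 3 lower without TP-0903 P4). EPCAM, an adhesion molecule of epithelium, stood at 12.2 and 8.8, 48.3 and 28.1, 7.22 and 7.66 and 3.89 and 3.08 CPM in the same order, so that a matrix gene and an epithelial gene shared the AXL shRNA high pattern.

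Of 30 NRF2 targets, which A549 is known to express strongly with its mutant KEAP1, 2 were higher and 2 lower in the difference and none passed with the drug; 1 was higher without control shRNA P15, control P17, TP-0903 P17 or TP-0903 P4, and 6 were higher and 6 lower with the block. HMOX1, heme oxygenase, stood at 230.0 and 259 CPM in control shRNA, 1163 and 1823 CPM in AXL shRNA, 445 and 626 CPM in control and 234 and 463 CPM in TP-0903, and TXNRD1, thioredoxin reductase, at 2023 and 2534, 558 and 827, 2013 and 2692 and 2720.0 and 3447 CPM. These targets of the same factor went in opposite directions in AXL shRNA, with differences of -3.23 (SE 0.51) and 2.11 (SE 0.36). Of 32 lysosomal and autophagy genes 6 were higher and 4 lower (10 higher with the block, 2 and 3 higher without control P17 and TP-0903 P17, and 2 lower without control shRNA P3, AXL shRNA P3 or TP-0903 P17). NPC1, which exports cholesterol from lysosomes, had a difference of -1.86 (SE 0.19). Of all tested genes, 3.06% had a higher level in control shRNA than in control. Of 33 genes of ERK feedback and early response, 10 had a higher level in control shRNA than in control, with a median control gap of 0.67, and 3 were higher and 4 lower in the difference, 1 to 2 and 1 to 4 with a library left out, and 4 and 7 with the block.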
